A study of Sus scrofa with 15 samples.

Results

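In mammary tissue taken from sows between 14 days before parturition and 1 day after it, 177 genes had a mean level that was higher at each of the 4 successive samplings and at least 2 times as high on day -2 as on day -14. They are called the steadily climbing genes here. They were chosen by their measured levels: of 25322 genes counted, 13503 reached a level of 1 CPM (a read count scaled to the size of its library) in at least 3 of 15 libraries, 932 of these (6.9%) had a mean that increased at all 4 steps, 199 of those also met the 2-fold requirement, and 177 (1.31% of the tested genes) had a highest mean of at least 5 CPM. For scale, 695 tested genes (5.15%) had a mean that decreased at all 4 steps. Because all 5 time points entered the choice, the levels below are a description of the set, and no test of change over time is attached to them. The name tables used here gave a symbol for 121 of the 177 genes, and the other 56 are given by their Ensembl identifier.

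The tissue was mammary gland of pig, biopsied on days -14, -10, -6 and -2 from parturition and on day +1, with 3 RNA-seq libraries per time point. The same 3 second-parity sows, crosses of Danish Landrace and Yorkshire, gave all 15 samples. They were picked for a high colostrum yield, which limits them as a model of other sows. Each ate its own diet, which paired alfalfa meal with trioctanoate, sugar beet pulp with palm fatty acid distillate, or alfalfa meal with soybean oil. An effect of diet cannot be told apart from one of the animal. By the gestation ages in the study's text, the diets appear to have started after the earliest biopsy. An effect of the change of diet therefore cannot be told apart from one of time either. Its part in the climb was not tested. There was no untreated or non-pregnant control, and day -14 served as the baseline. The labels number the libraries without naming the animal. Each library was joined to its sow by its total count, which the study lists beside the animal, and below sow 1 is replicates 1, 10, 19, 28 and 37, sow 2 is replicates 4, 13, 22, 31 and 40, and sow 3 is replicates 7, 16, 25, 34 and 43. Where 3 values are given for a day, they are for sows 1, 2 and 3 in that order.

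Late pregnancy is when the mammary alveolar cell turns from growth to secretion. It first forms colostrum, rich in immunoglobulins and other defence proteins, and then milk. Milk needs several lines of synthesis at once: caseins and whey proteins made on the rough endoplasmic reticulum, lactose made in the Golgi from glucose and UDP-galactose with the help of alpha-lactalbumin, and triacylglycerol droplets that leave the cell wrapped in plasma membrane.

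Total counts per library ranged from 10782343 to 19952918 with a median of 17726719. The factor that edgeR's TMM method (a trimmed mean of ratios) applied to each library size ran from 0.545 in replicate 37 of day +1 to 1.24, since the 10 most abundant genes held 53.8% of the reads in replicate 37 and 16.6% in replicate 7. CPM values below are after this scaling. In whole tissue, fewer cells of a type and less RNA per cell cannot be told apart. The RNA integrity number that the study lists for each sample was higher towards day +1, and its part in the climb was not tested beyond a fit given below with the calls.

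The climbing genes took a growing share of all reads. They held 3.2% ± 0.372 of the reads in tested genes on day -14, 5.41% ± 1.66 on day -10, 8.29% ± 2.36 on day -6, 17.9% ± 6.65 on day -2 and 31.6% ± 13.4 on day +1 (SD, n = 3). Most of this came from CSN1S1, CSN2, CSN3, LALBA and the unnamed gene ENSSSCG00000009263, which together held 2.16% ± 0.278 on day -14, 14.7% ± 5.81 on day -2 and 23.5% ± 14.3 on day +1. The other 172 genes held 1.03% ± 0.094, 3.21% ± 0.85 and 8.09% ± 1.04 on those days. On day +1 the share of those 5 genes was 39.7% in sow 1, 12.4% in sow 2 and 18.5% in sow 3, whereas the share of the other 172 genes was 7.13%, 9.2% and 7.95%. The summed share of the 172 genes thus spread less between sows than that of the 5, although many single genes among the 172 spread widely on day +1.

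**Figure D1:**
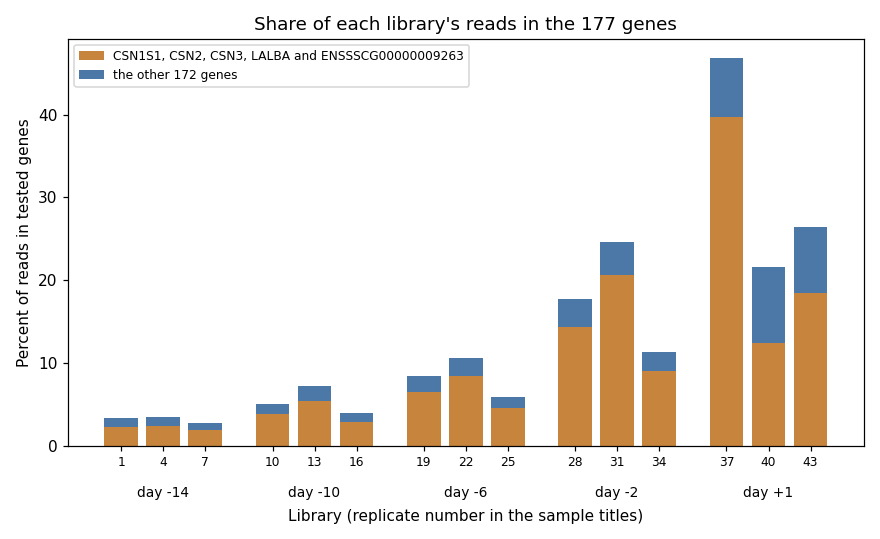
Percent of each library's reads in tested genes that fell on the 177 climbing genes, by library and day. The lower part of each bar is CSN1S1, CSN2, CSN3, LALBA and ENSSSCG00000009263 and the upper part the other 172 genes; the bar of replicate 37 on day +1 is the tallest at 46.8%, and the 3 bars of day -14 lie between 2.77% and 3.45%.

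The median gene of the set stood 2.69-fold higher on day -2 than on day -14, with a range of 2.01-fold to 819-fold, and 5.66-fold higher on day +1, with a range of 2.08-fold to 4490-fold. The median over all tested genes was 0.991-fold and 1.01-fold, which the scaling of the libraries largely sets. By day -2, 34 of the 177 genes had reached 10-fold, by day +1 53 had, and 20 of them stood at 100-fold or more. The median log2 step was 0.361 from day -14 to -10, 0.409 from day -10 to -6, 0.81 from day -6 to -2 and 0.869 from day -2 to +1, against 0.00425, 0.00378, -0.00612 and 0.0222 over all tested genes. The largest step was the first in 14 genes, the second in 17, the third in 70 and the last in 76. The median gene had covered 67.7% of its log2 climb to day +1 by day -2, with 27 genes at 90% or more and 30 genes under 50%. The climb was thus uneven in most of the set: the smallest step was at least 1.2-fold in 65 genes.

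**Figure D2:**
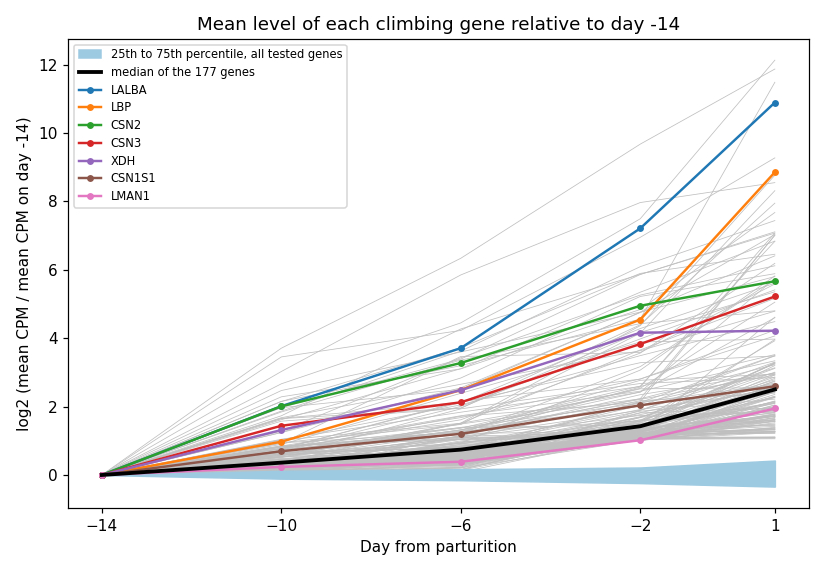
Mean level of each climbing gene (mean of 3 libraries) relative to day -14, as log2, against the day from parturition. Grey lines are the 177 genes, coloured lines 7 named ones, the black line the median of the set, and the blue band the 25th to 75th percentile of all tested genes; the black line reaches 1.43 on day -2 and 2.5 on day +1, while the band stays between -0.34 and 0.42.

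The caseins and alpha-lactalbumin were the most abundant named members. CSN1S1 encodes alpha-S1-casein, one of the calcium-binding proteins of the casein micelle. CSN1S1 measured 15820, 15460 and 13190 CPM on day -14, 23800, 29970 and 18230 on day -10, 34290, 41070 and 27090 on day -6, 54220, 81330 and 46900 on day -2, and 156600, 51380 and 60570 on day +1. It was already abundant on day -14 and its mean was 4.1-fold higher on day -2 and 6.04-fold higher on day +1. CSN2 encodes beta-casein. CSN2 measured 3178, 2183 and 1070 CPM on day -14, 6597, 15460 and 3824 on day -10, 20510, 30770 and 11010 on day -6, 68070, 97480 and 33130 on day -2, and 248100, 20610 and 58110 on day +1. The groups of day -14 and day -2 did not overlap, and the mean was 30.9-fold higher on day -2. CSN3 encodes kappa-casein, which sits on the micelle surface and keeps it in suspension. CSN3 measured 890.4, 1203 and 798.6 CPM on day -14, 2206, 4140 and 1498 on day -10, 4306, 6015 and 2302 on day -6, 13680, 21060 and 6414 on day -2, and 66320, 21300 and 20280 on day +1. Its level was higher at each step in each of the 3 sows, which did not hold for CSN1S1, CSN2 or LALBA, and the means of day -2 and day +1 were 14.2-fold and 37.3-fold that of day -14.

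LALBA encodes alpha-lactalbumin, the whey protein that turns galactosyltransferase into lactose synthase. LALBA measured 15.1, 6.41 and 1.12 CPM on day -14, 34.9, 53.4 and 3.19 on day -10, 127.8, 160.8 and 7.83 on day -6, 1380, 1892 and 90.9 on day -2, and 36970, 1469 and 4694 on day +1. Its mean was 148.4-fold higher on day -2 and 1904-fold higher on day +1, the widest range of any named member. Sow 3 was lowest on all 4 days before parturition, with 90.9 CPM on day -2 beside 1380 and 1892 in the other sows. By day +1 sow 2, at 1469 CPM, was the lowest of the 3. The smallest of its 4 steps was 1.70 on the log2 scale, the largest smallest step of any named member, and those of BTN1A1 (1.35), ODAM (1.13) and LBP (0.97) were also among the 5 largest.

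Levels per kilobase of exon, which allow genes to be compared, were ranked for the members with a symbol and for ENSSSCG00000009263. Other members without a symbol were left out, and some of them were also abundant. The order on day +1 was ENSSSCG00000009263 with 102100 CPM per kb, CSN2 with 99130, CSN1S1 with 79780, CSN3 with 49680 and LALBA with 21550. Each of these genes overlapped its neighbour in the order when their 3 libraries were compared. On day -14 the order of these genes was CSN1S1 with 13210 CPM per kb, CSN2 with 1950, CSN3 with 1332, ENSSSCG00000009263 with 27.2 and LALBA with 11.3, so the genes that started lowest covered the widest range. Of the other members with a symbol, LBP with 2405, MFGE8 with 1608 and XDH with 1234 CPM per kb followed on day +1. ACSL3 with 1112, CTSV with 510.5 and ACSL6 with 415.4 came next. The median member was at 6.01 CPM per kb on day -14 and 41.7 on day +1, against 7.62 and 8.09 over all tested genes, and the median exon length was 1720 bases in the set and 2050 over the tested genes.

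Several members lay side by side on chromosome 8 of the Sscrofa10.2 build. CSN1S1 (chr8:148201997-148222501, plus strand), CSN2 (chr8:148228429-148236984, minus strand), ENSSSCG00000009263 (chr8:148310617-148326957, plus strand), CSN3 (chr8:148440837-148444886, plus strand) and ODAM (chr8:148456188-148465034, minus strand) all fell in the casein gene cluster. ENSSSCG00000009263 measured 58.8, 21 and 9.36 CPM on day -14, 809.5, 320.1 and 36.5 on day -10, 3497, 3564 and 158.5 on day -6, 23150, 47310 and 2589 on day -2, and 220100, 45620 and 69060 on day +1. The mean of this unnamed gene was 819-fold higher on day -2, the largest change in the set, and sow 3 was lowest on each of the 4 days before parturition. ODAM, which encodes a protein secreted at epithelial surfaces and in developing teeth, stayed at 11.9 CPM or below in every library. It had 3 reads in all on day -14 and 58 on day -2, a pooled ratio of 27.1 with an exact 95% interval of 8.81 to 135 that covers counting error only. In all, 162 members lay on chromosomes and 15 on unplaced scaffolds, and 12 pairs of members were next to each other among the tested genes. Chromosome 8 held 12 members among 449 tested genes (2.67%).

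**Figure D3:**
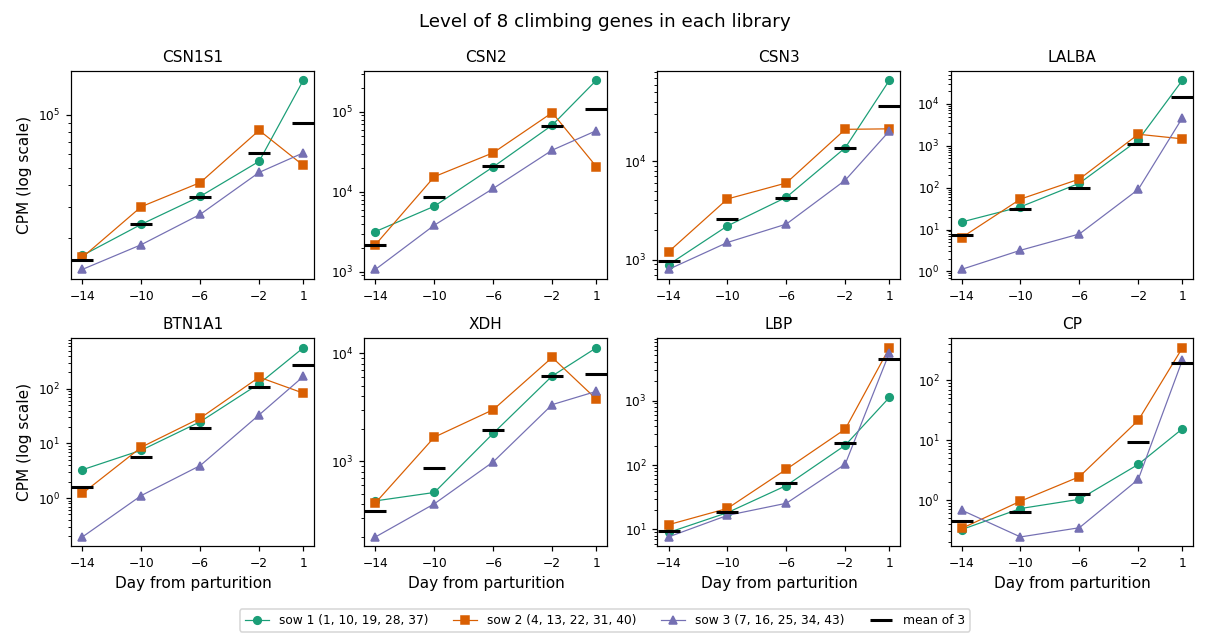
CPM of 8 climbing genes in each of the 15 libraries on a log scale, against the day from parturition, with 1 symbol and line per sow and a bar at the mean of 3. For CSN2, sow 2 goes from 97480 CPM on day -2 to 20610 on day +1 while sow 1 goes from 68070 to 248100, and for LBP and CP sow 1 is the lowest of the 3 on day +1.

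Proteins of the milk fat globule formed a second group. BTN1A1 encodes butyrophilin, the main membrane protein of the globule. BTN1A1 measured 3.3, 1.22 and 0.194 CPM on day -14, 7.53, 8.56 and 1.11 on day -10, 25, 29.1 and 3.94 on day -6, 124.5, 163.8 and 33.4 on day -2, and 566.5, 83.5 and 168.7 on day +1. Its mean was 68.3-fold higher on day -2. XDH encodes xanthine dehydrogenase, which binds butyrophilin at the apical membrane. XDH measured 429.7, 411.8 and 199.3 CPM on day -14, 514.1, 1672 and 403.9 on day -10, 1815, 3002 and 988 on day -6, 6151, 9135 and 3340 on day -2, and 11220, 3754 and 4434 on day +1. The mean was 17.9-fold higher on day -2 but only 18.6-fold on day +1, so nearly the whole climb was before parturition. MFGE8 encodes lactadherin, a globule protein that also bridges dying cells to phagocytes, and its mean was 921 CPM ± 99.2 on day -14, 2317 ± 706 on day -2 and 3277 ± 3729 on day +1 (SD, n = 3). The 3 libraries of day +1 spanned 656.9 to 7545 CPM. CIDEB, a lipid droplet protein, was at 1.41 CPM on day -14, 2.87 on day -2 and 8.18 on day +1.

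A group of 11 members acts in fatty acid, triacylglycerol and sterol synthesis, with a median of 2.22-fold on day -2 and 4.81-fold on day +1. ACSL6 and ACSL3 encode long-chain acyl-CoA synthetases, which activate fatty acids. ACSL6 measured 55.2, 18.3 and 3.15 CPM on day -14, 54.6, 68.6 and 7.79 on day -10, 186.2, 124.5 and 22.6 on day -6, 676.7, 690.7 and 124.7 on day -2, and 3036, 102.8 and 605.8 on day +1. ACSL6 had the widest climb of the group, 19.5-fold by day -2, and sow 3 was the lowest up to day -2 whereas sow 2 was the lowest on day +1. ACSL3 measured 363.2, 297.3 and 277.2 CPM on day -14, 271.4, 407.7 and 287.2 on day -10, 383.8, 391.6 and 304.1 on day -6, 1109, 1340 and 566.5 on day -2, and 6186, 784.6 and 1168 on day +1. For ACSL3 the mean hardly moved up to day -6 and the largest step came between day -6 and day -2. ACACA, the carboxylase that makes malonyl-CoA, had means of 37.4, 42.2, 46.1, 93.3 and 252 CPM over the 5 days. SCD, which puts the double bond into oleic acid, had means of 226.9, 256.3, 295.8, 579 and 2207 CPM. Both had their largest step after day -2, but it rested on replicate 37. The SD on day +1 was 258.4 CPM for ACACA and 2516 for SCD. Without replicate 37, ACACA went from 97.45 CPM on day -2 to 107.1 on day +1, and SCD from 604.9 to 789.1. The acyltransferases GPAT3 and GPAT4, the desaturase FADS1, the sterol enzymes FDPS and CYP51A1, HSD17B12 of fatty acid elongation and ACSS3, an acyl-CoA synthetase for short chains, made up the rest, with ratios between 2.04 and 2.78 on day -2. ENSSSCG00000012202 (chrX:28788860-28871823, plus strand), which has no symbol in the name tables but which the study's text calls glycerol kinase (GK), the enzyme that makes glycerol 3-phosphate for triacylglycerol, was also a member but is not counted in the 11. Its means were 17.7, 18.6, 20.4, 36 and 53 CPM. Reads of HSD17B12 and ACSS3 are uncertain because each overlaps another gene on the same strand.

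Genes that supply sugars for lactose and glycoproteins climbed by small factors. UGP2, which makes UDP-glucose, had means of 218 CPM ± 31.2 on day -14, 526 ± 249 on day -2 and 535 ± 177 on day +1 (SD, n = 3), so its mean hardly changed after day -2. SLC35A2, which carries UDP-galactose into the Golgi, had means of 20.1, 22.3, 27.1, 41.5 and 43.1 CPM. SLC50A1, a sugar transporter of the SWEET family, had means of 30.1, 40.9, 44.1, 70.4 and 80.6 CPM. GFPT1, the first enzyme of hexosamine synthesis, the glycosyltransferases ST3GAL1 and GALNT15, and HS6ST1, a sulfotransferase of heparan sulfate, completed the group of 7, whose ratios on day -2 lay between 2.07 and 2.64.

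A further 9 members act in the endoplasmic reticulum or Golgi. PDIA4, a disulfide isomerase, measured 205.3, 210.9 and 217.6 CPM on day -14 and 567.3, 560.5 and 419.9 on day -2, and its level was higher at each step in all 3 sows. KDELR3, a receptor that returns resident proteins to the endoplasmic reticulum, had means of 18.1, 20.8, 26.6, 59 and 107.3 CPM. CREB3L1, a transcription factor of secretory cells that is held in the endoplasmic reticulum membrane, had means of 74.4, 88.7, 93.8, 163.5 and 246.6 CPM, and its libraries of day -14 and day -2 overlapped because sow 3 was at 95 CPM on day -2 and sow 2 at 97.1 on day -14. LMAN1, a cargo receptor for glycoproteins on the way to the Golgi, was the member second nearest to the 2-fold limit at 2.023-fold, after FAM227B at 2.012-fold. Just outside it were SEC11C, a subunit of the signal peptidase, at 1.999-fold, and PANK3, a kinase of coenzyme A synthesis, at 1.988-fold. SELENOM, DNAJC12, AGR2, TEX264 and FAM20A were the other members of the group. The median of the group was 2.27-fold on day -2 and 4.34-fold on day +1.

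Defence and the acute phase were represented by 5 named members. In 3 of them the day +1 mean was 319 to 464 times that of day -14. Members without a symbol were not sorted by role, so more genes of this kind can be among them. LBP encodes the protein that binds bacterial lipopolysaccharide and passes it to its receptor. LBP measured 8.98, 11.9 and 7.67 CPM on day -14, 18.3, 21.2 and 16.6 on day -10, 48, 85.9 and 25.5 on day -6, 202.5, 360.5 and 103.2 on day -2, and 1119, 6586 and 5514 on day +1. The level was higher at each step in all 3 sows. The mean was 23.4-fold higher on day -2 and 463.7-fold higher on day +1. CP encodes ceruloplasmin, the copper-carrying ferroxidase. CP measured 0.321, 0.335 and 0.679 CPM on day -14, 0.721, 0.957 and 0.242 on day -10, 1.03, 2.45 and 0.345 on day -6, 3.94, 21.4 and 2.21 on day -2, and 15.5, 348.2 and 218.8 on day +1. Up to day -6 it stayed under 3 CPM in every library, and its largest step was the last. LPO encodes lactoperoxidase, an antibacterial enzyme of milk. LPO measured 0.367, 0.335 and 0.291 CPM on day -14, 0.992, 0.532 and 0.387 on day -10, 1.41, 1.01 and 0.345 on day -6, 10.24, 6.84 and 0.517 on day -2, and 262.7, 23.9 and 29.8 on day +1. On day +1 sow 1 was the highest of the 3 for LPO and the lowest for CP and LBP. PIGR, the receptor that carries polymeric immunoglobulin A into milk, had means of 23.6, 41.5, 78.4, 129 and 239 CPM, and its unnamed neighbour ENSSSCG00000015651 on chromosome 9 had means of 6.85, 14.1, 24.4, 41.2 and 78.6. TLR2, a receptor for bacterial lipoproteins, was at 30.5 CPM on day -14 and 141.5 on day -2, and its level was higher at each step in all 3 sows.

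Among 11 transporters, pumps and channels, the median was 3.54-fold on day -2 and 8.79-fold on day +1, and 8 had their largest step after day -2. SLC6A14 encodes a carrier of neutral and basic amino acids. SLC6A14 measured 28.8, 23.7 and 13.4 CPM on day -14, 38.8, 142.3 and 25.7 on day -10, 61.5, 158.2 and 36.9 on day -6, 370.5, 752.5 and 64.1 on day -2, and 1660, 530.6 and 516.9 on day +1. Sow 2 was the highest of the 3 on days -10, -6 and -2 and sow 1 on day +1. ATP2B2, the plasma membrane calcium pump that moves calcium into milk, had means of 0.265, 0.468, 0.611, 2.39 and 14.0 CPM. FOLR2, a folate receptor, had means of 16.2, 23.2, 40.5, 65.6 and 181.5 CPM. FLVCR2 and FOLR2 were the 2 genes of the group whose level was higher at each step in all 3 sows. The others were ATP13A4, ANKH, LRRC8C, SLC47A2, SLC10A7, SPNS3 and MCOLN3.

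The 14 receptors, hormones and signalling genes had a median of 2.69-fold on day -2 and 7.45-fold on day +1, and 10 had their largest step after day -2. VDR, the vitamin D receptor, measured 101, 112 and 99.2 CPM on day -14, 264.4, 226.7 and 250.9 on day -2 and 931.1, 622.4 and 821.9 on day +1, with little spread between sows. EGF, a growth factor that is secreted into milk, was under 1 CPM in all libraries up to day -6 and had means of 2.74 CPM on day -2 and 18.5 on day +1. ADORA1, an adenosine receptor, had means of 2.45, 4.05, 9.82, 38.6 and 104.4 CPM, and HCRTR1, an orexin receptor, means of 0.389, 0.661, 1.19, 4.61 and 28.4 CPM. Both were higher at each step in all 3 sows. ADGRF1, an adhesion receptor, had 2 reads in all on day -14 and 29 on day -2, a pooled ratio of 20.3 with an exact 95% counting interval of 5.14 to 176. ITGB6, GPRC5B, DUSP1, FOXO3, CITED2, MRAS, ANGPTL4, FGFBP1 and IGFALS were the other members of the group. For ANGPTL4, an inhibitor of lipoprotein lipase, sow 1 was at 31.3 CPM on day +1 beside 223.1 and 191.6 in the other sows.

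**Figure D4:**
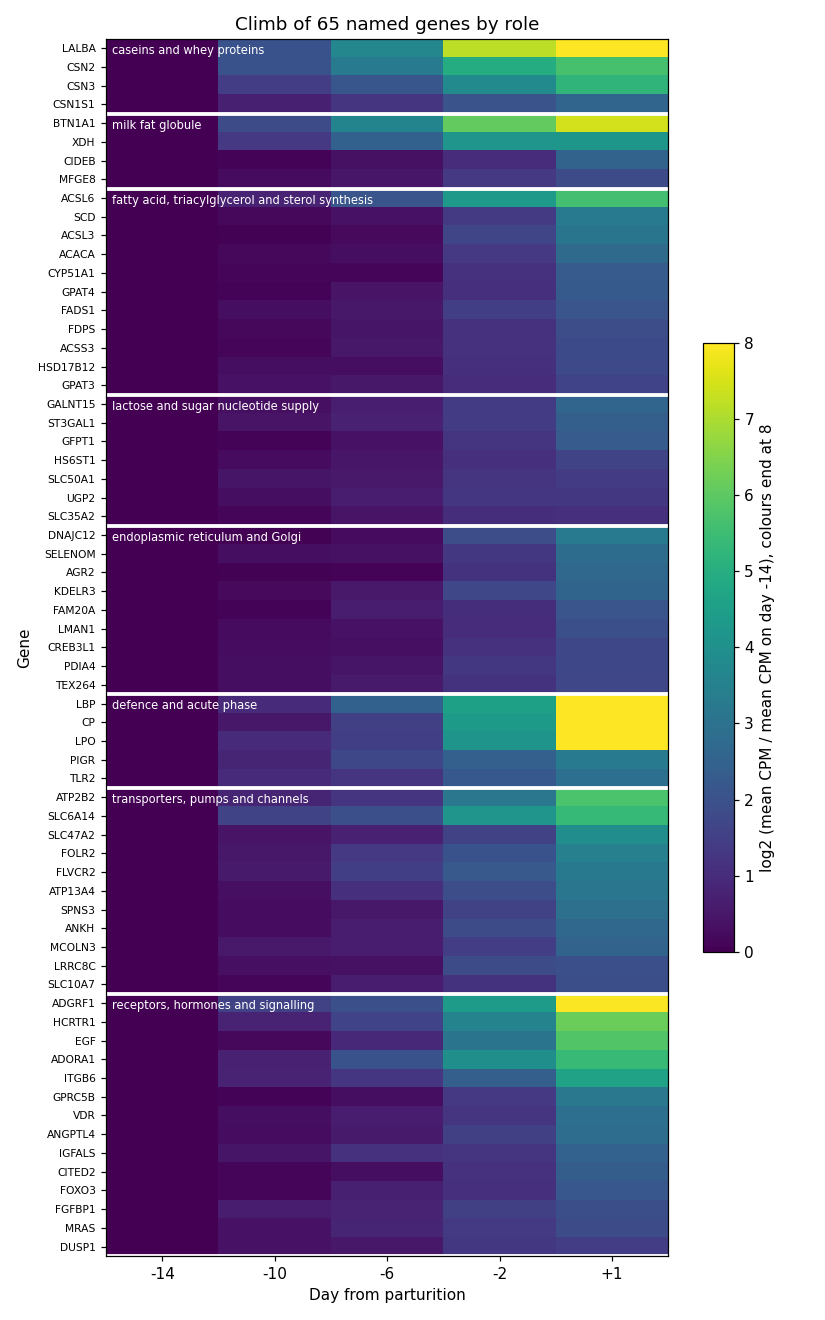
Mean level of 65 named climbing genes relative to day -14, as log2, with genes in rows by role and days in columns. Colour runs from 0 to 8 and ends there; XDH is at 4.16 on day -2 and 4.22 on day +1, while LALBA, LBP, CP and LPO lie beyond the end of the scale on day +1.

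The 56 members without a symbol in the name tables had a median of 3.27-fold on day -2 and 7.3-fold on day +1, and 16 of them reached 10-fold by day -2. ENSSSCG00000016731 on chromosome 18 had means of 0.686, 4.36, 15.0, 123.7 and 3082 CPM and the largest ratio of the set on day +1, 4490-fold, with higher levels at each step in all 3 sows. On chromosome 2, 3 unnamed neighbours were members, and of these ENSSSCG00000013370 had means of 1.41, 6.29, 12.97, 33.4 and 4057 CPM. Its neighbour ENSSSCG00000028525 had means of 240.8, 370.2, 553.6, 1131 and 31030 CPM, and its 3 libraries of day +1 lay close together at 32370, 30370 and 30350 CPM. ENSSSCG00000022639, on an unplaced scaffold, had 1 read on day -14 and 171 on day -2, a pooled ratio of 239 with an exact 95% counting interval of 42.4 to 9510. Neighbouring genes of like sequence can share reads, so the split of counts between them is uncertain.

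The individual sows did not climb evenly. Against its own day -14 library, the median member stood at log2 0.36, 0.72, 1.47 and 2.82 on days -10, -6, -2 and +1 in sow 1, at 0.56, 0.99, 1.78 and 2.06 in sow 2, and at 0.24, 0.58, 1.09 and 2.11 in sow 3. Sow 3 lay below the other 2 on every day before parturition. Its library was the lowest of 3 for 85, 110, 126 and 144 of the 177 genes on days -14, -10, -6 and -2. Over all tested genes it was the lowest for 31.9%, 30.2%, 32.9% and 35.7%. On day -2 the median deviation of sow 3 from the mean of the 3 was -0.504 on the log2 scale for the climbing genes and -0.002 for all tested genes. The value near 0 over all tested genes is largely set by the scaling of the libraries. Sow 2 was the highest on day -2, at 0.444, and on day +1 sow 1 was the highest, at 0.521. Sow 1 then had the top value of the 3 for 121 of the 177 genes and the lowest for 34. It had the lowest value for 41.2% of all tested genes. Deviations of libraries of the same sow had a mean correlation of 0.551 over the climbing genes and 0.396 over all tested genes across 30 pairs. Those of different sows had -0.266 and -0.198 across 60 pairs. These 2 values follow from the first 2 and add nothing, because the 3 deviations of a day sum to 0 for each gene. These correlations are across genes, which are not independent.

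**Figure D5:**
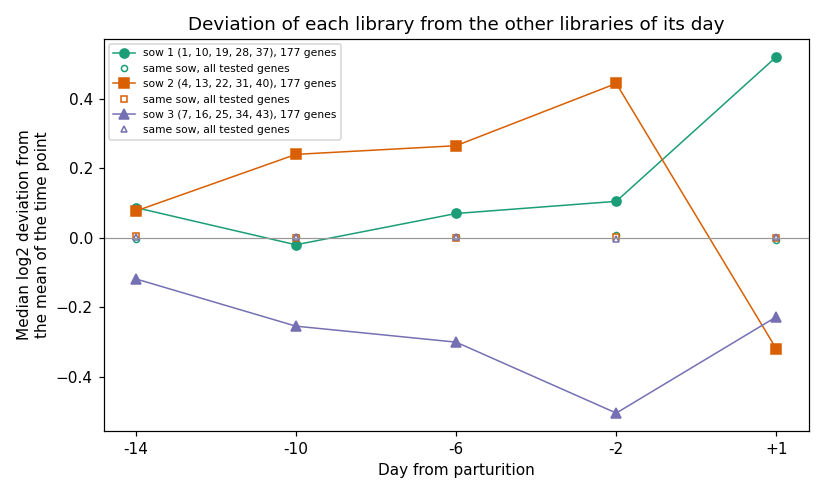
Median over genes of the log2 deviation of each library from the mean of its time point, by day and sow. Filled symbols are the 177 climbing genes and open symbols all tested genes. Sow 3 lies at -0.504 on day -2 and sow 1 at 0.521 on day +1. Every open symbol lies within 0.008 of 0, which is largely set by the scaling of the libraries.

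The level was higher at all 4 steps in each of the 3 sows for 27 of the 177 genes. Over all tested genes this held for 45 (0.333%), and the rule that chose the members bears on that count. The named ones were CSN3, LBP, TLR2, ADORA1, HCRTR1, ITGB6, KRT39, PLEKHD1, FLVCR2, FOLR2, GALNT15, MRAS, GPRC5B, PDIA4, HPN and LMAN1. Of 12 steps in all, 141 of the 177 genes were higher at 10 or more. The median was 10 steps for the members and 6 over all tested genes, and the rule bears on these values too. The last step rested on 1 library in many genes. Without replicate 37, the day +1 library of sow 1, the same rule gave 124 genes, of which 119 were among the 177, and 54 of the 177 no longer had a day +1 mean above that of day -2. CSN1S1, CSN2, XDH, MFGE8, ACSL3, ACSL6, PIGR, UGP2 and SLC35A2 were among those 54, and the CSN2 mean then went from 69160 CPM on day -2 to 40790 on day +1. In all, 45 members stayed in the set whichever of the 15 libraries was left out. They included CSN3, LALBA, BTN1A1, LPO and ENSSSCG00000009263.

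The scaling of the libraries also set the size of the set. Without TMM, the median tested gene was at log2 -0.42 on day -2 and -0.64 on day +1 relative to day -14. The rule then gave 63 genes, all of them among the 177. All 177 still had a higher mean on day -2 than on day -14, but 89 were under 2-fold and 66 missed a step. CSN1S1, CSN2, CSN3, LALBA, BTN1A1, LBP, CP, LPO, PIGR and SLC6A14 were among the 63, and XDH, SCD, ACACA, UGP2, VDR and PDIA4 were not.

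Each later day was compared with day -14 in edgeR's quasi-likelihood test across all tested genes, and a gene was called when its p, adjusted after Benjamini and Hochberg, was at most 0.05 both for time overall and for that day. These calls use the values that chose the members, and nothing is read from how many members are called. On day -2, 84 of the 177 were called higher, beside 263 of all tested genes (1.95%), and on day +1 154 were called higher, beside 1799 (13.3%). No tested gene was called higher on day -10 (0%) or day -6 (0%). On those days 15 and 86 members were higher with an unadjusted p of 0.05 or less in the same test. So were 184 and 682 of all tested genes (1.36% and 5.05%). On day -6, DESeq2 called 28 members beside 86 of all tested genes (0.637%) and limma-voom 3 beside 20 (0.148%), and on day -10 both called 0 members. No member was called lower, where 121 tested genes (0.896%) were called lower on day -2 and 1404 (10.4%) on day +1. With sow as a block, which pairs the libraries of the same animal, 19 members were called higher on day -6, beside 56 of all tested genes (0.415%). That fit called 139 on day -2, beside 684 (5.07%), and 169 on day +1, beside 2206 (16.3%). With the RNA integrity number as a covariate, which moved with the time points, 0 members were called on day -2, beside 0 of all tested genes (0%). On day +1 that fit called 6, beside 35 (0.259%). The median log2 difference of the members in that fit was 1.35 and 2.2, beside 1.42 and 2.5 without the covariate. The members were chosen for a higher mean on these days, so nothing is read from these medians. The part of RNA integrity cannot be told apart from that of time. The count on day -2 moved with the libraries, and so did the share of all tested genes. It was 35 without replicate 1 of day -14, beside 87 of all tested genes (0.646%). It was 14 without replicate 4, beside 26 (0.193%), and 21 without replicate 7, beside 53 (0.394%). It was 39 without replicate 28 of day -2, beside 76 (0.564%), and 26 without replicate 31, beside 50 (0.371%). Without replicate 37 of day +1 it was 148, beside 815 (6.05%). The count on day -6 was 1 without replicate 16, beside 4 of all tested genes (0.0297%). It was 1 without replicate 25, beside 2 (0.0149%), and 7 without replicate 37, beside 24 (0.178%).

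The 3 libraries of day -2 all lay above the 3 of day -14 in 157 of the 177 genes, beside 2048 of all tested genes (15.2%). From one sampling to the next, the groups separated less often. The 3 libraries lay above the 3 before them in 29 members from day -14 to -10, beside 682 of all tested genes (5.05%). From day -10 to -6 this held for 27 members, beside 1323 tested genes (9.8%). It held for 64 from day -6 to -2, beside 1288 (9.54%), and for 50 from day -2 to +1, beside 1822 (13.5%). At each single step, most members therefore had libraries that overlapped those of the sampling before.

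The values of some further genes of the secretory cell are given here by list. The shares over all tested genes apply to every list: 1.31% were members. On day -2, 1.95% of all tested genes were called higher and 0.896% lower. On day +1, 13.3% were called higher and 10.4% lower. The lists are partial: they leave out many of the members described above by role, such as SLC6A14, UGP2, ACSL3, FADS1 and TLR2, so a count of members in a list is not a share of its class. Of 3 of the lists only some genes could be found by symbol, namely 21 of 32, 28 of 35 and 7 of 14. Of these, 21, 28 and 5 were tested. Genes of these lists that have no symbol in the name tables can be among the unnamed members. The first list mixes milk and globule proteins with lipid enzymes and regulators of milk synthesis, and of its 21 tested genes 11 were members (ACACA, BTN1A1, CSN1S1, CSN2, CSN3, LALBA, LPO, MFGE8, PIGR, SCD and XDH). In that list 8 genes were called higher and 0 lower on day -2, and 14 higher and 1 lower on day +1. Its median log2 difference was 1.33 on day -2 and 2.11 on day +1, where the median of all tested genes was -0.01 and 0.02. The other 10 missed the rule in different ways. LTF, which encodes lactoferrin, had a higher mean at all 4 steps but was 1.75-fold on day -2. MUC15, a globule mucin, was 4.21-fold on day -2 and had a slightly lower mean on day +1. FASN, the fatty acid synthase, went from 459.5 CPM on day -14 to 373.5 on day -10 before a mean of 1666 on day +1. ELF5 and STAT5A, transcription factors of the alveolar cell, were 1.446-fold and 1.055-fold on day -2, and the means of both were lower on day +1 than on day -2.

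Protein folding and transport made up further lists. Over all tested genes, 1.31% were members, 1.95% were called higher on day -2 and 13.3% on day +1. The shares called lower were 0.896% and 10.4%. Of 28 tested genes of the unfolded protein response, 3 were members (CREB3L1, KDELR3 and PDIA4), 5 were called higher on day -2 and 25 on day +1, with 0 called lower, and the median log2 difference was 0.71 and 1.16. HSPA5, the main chaperone of the endoplasmic reticulum, had means of 289.8, 303.9, 244.8, 445.6 and 1000 CPM, with a lower level on day -6 than on day -10. XBP1, the transcription factor of that response, had means of 514, 634, 761.4, 1134 and 748.9 CPM. Of 32 genes of translocation and folding none was a member, with 6 called higher on day -2 and 21 on day +1 and medians of 0.48 and 0.88. Transport from the endoplasmic reticulum to the Golgi had 1 member of 27 (LMAN1), 3 called higher on day -2, 15 on day +1 and medians of 0.37 and 0.54. Glycosylation and nucleotide sugars had 1 of 26 (SLC50A1), 1 called higher on day -2, 10 higher and 2 lower on day +1 and medians of 0.22 and 0.38. That list does not hold the members UGP2, SLC35A2, GFPT1, ST3GAL1 and GALNT15. Lipid synthesis and lipid droplets had 3 of 31 (CIDEB, FDPS and GPAT4), 2 higher and 1 lower on day -2, 16 higher and 1 lower on day +1 and medians of 0.1 and 0.63. It does not hold ACSL3, ACSL6, GPAT3, FADS1, CYP51A1 or HSD17B12, and ACACA and SCD stand in the first list.

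The remaining lists held few or no members, where 1.31% of all tested genes were members. Of all tested genes, 1.95% were called higher and 0.896% lower on day -2. On day +1 these shares were 13.3% and 10.4%. Acute phase and antimicrobial genes had 2 of 5 (CP and LBP), with 1 higher and 1 lower on day -2 and 3 higher and 1 lower on day +1. C3, the central complement protein, went from 75.3 CPM on day -14 to 71.1 on day -2 and 2054 on day +1, and LYZ, which encodes lysozyme, from 40.4 to 11.7 and 13.8. In a list of 26 antimicrobial and innate immune genes, which leaves out TLR2, LPO and PIGR, none was a member, with 0 called on day -2 and 11 higher and 1 lower on day +1. In a list of 41 solute carriers, channels and water pores, which leaves out the 11 transporters described above, none was a member, with 2 higher on day -2 and 10 higher and 2 lower on day +1. Transcription factors and signalling genes of secretory differentiation had none of 26, with 2 higher and 1 lower on day -2 and 8 higher and 4 lower on day +1. None of 26 cell cycle genes was a member or was called higher, and 21 were called lower on day +1, with a median log2 difference of -0.12 on day -2 and -1.47 on day +1.

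Markers of the cell types in the gland included no member, where 1.31% of all tested genes were members. Of all tested genes, 1.95% were called higher and 0.896% lower on day -2, and 13.3% and 10.4% on day +1. Each sum below is weighted to its most abundant markers. The summed level of 12 epithelial markers was 1690 CPM on day -14 (range 1600 to 1770), 1230 on day -2 (1130 to 1300) and 1540 on day +1 (1060 to 1920), with 0 called on day -2 and 3 higher and 2 lower on day +1. The sum of 12 fibroblast and matrix markers was 5310 CPM (3710 to 6920), 3610 (3430 to 3860) and 2990 (1980 to 3730) on the same days, with 2 called higher and 1 lower on day +1. COL3A1 alone had means of 3397, 2359 and 1773 CPM. The 2 called higher were DDR2 and LOXL1, and LUM was called lower. The 11 endothelial markers summed to 459, 458 and 391 CPM, with 1 called higher on day -2 and 2 higher and 3 lower on day +1. The 14 leukocyte markers summed to 422, 421 and 364 CPM, with 3 called lower on day +1. The 6 adipocyte markers summed to 175, 171 and 180 CPM, with 1 called higher on day +1. Most of that sum was BSCL2 and PNPLA2, at 130.8 and 35.15 CPM on day -14, so it says little about the other markers. The 4 skeletal muscle markers summed to 16.4, 14 and 28.8 CPM, with ACTA1 and MYH1 called higher on day +1, when their means were 14 and 3.28 CPM. The part of these shifts in the climb was not tested.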

How the data were processed

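RNA from 15 sow mammary biopsies was sequenced by the authors from stranded mRNA libraries, from one end for 101 cycles. Per the labels and the study's methods, reads were trimmed with Trimmomatic (0.33), checked with FastQC (0.11.15), aligned with STAR (2.5.1b) and counted per gene with featureCounts of Subread (1.5.0). The deposited values are raw counts of reads per gene over exons, with reverse strand setting 2, and the file headers name build Sscrofa10.2 and Ensembl release 86, whereas the methods name a RefSeq annotation.

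From these counts, genes with 1 CPM or more in at least 3 libraries were kept (13503 of 25322) and scaled by TMM in edgeR (4.0.16, R 4.3.3), with library sizes taken after the filter. Means of 3 libraries were taken on the CPM scale, and the rule in the text was applied to them. Calls came from edgeR's quasi-likelihood test over all 15 libraries with time as the factor. Alternatives used DESeq2 (1.42.0), limma-voom (limma 3.58.1) with sow as a random effect, sow as a block, the RNA integrity number as a covariate, other normalizations, filters, centres and thresholds, and 15 fits that each lacked 1 library. The scripts were tested on simulated data. Libraries of the same animal are paired by the study's sow number: deviations of same-sow libraries had a mean correlation of 0.396 over all tested genes. The main test does not use this pairing.

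Of the 121 named genes, 20 took the name from the study's own gene table and 101 from a table of Ensembl identifiers. For 1 further gene a name given in the text of the study is added. Genes were named in the text as the 10 with the highest ratio from day -14 to -2, the 10 with the highest level per kilobase on day +1, the 5 with the largest smallest step, the members of lists, the genes without a symbol with the highest ratio and those next to the 2-fold limit. One gene that this rule names is not reported here. The pool of names was widened with the Ensembl table after the rule was written. The 8 role groups hold only members with a symbol and were put together after the members were known. Genes described beyond the rule were chosen after their values were seen. The members and lists were chosen with earlier results of these data known. Depth per library (10782343 to 19952918 reads) limits genes with few reads on day -14: 4 members had 3 or fewer there, and their ratios carry intervals for counting error only. Reads of 10 members whose span overlaps another gene on the same strand are uncertain.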

Additional observations from a re-analysis of the deposited data

How the results depend on the processing

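The count of 177 genes kept within 1.5-fold under DESeq2's size factors, no filter, a filter on all libraries, medians, geometric means, a peak of 1 or 10 CPM, the steps before parturition alone, the exclusion of sow 3 (220 genes, 146 of them shared) and each library left out (124 to 197). It moved to 63 without TMM, 383 with a fold of 1.5, 75 with a fold of 3 and 27 when each sow had to rise at every step. Medians gave 129 genes, 99 of them shared. Members called on day -10 stayed at 0 in every fit. On day -6 the 0 became 28 in DESeq2, 2 without the filter, 19 with sow as replicate block and 3 in limma-voom, and 0 to 7 with a library left out. On day -2 the 84 became 133 in DESeq2, 139 with the block and 0 with the RNA integrity number, and 14 to 148 with a library left out. On day +1 the 154 became 6 with the RNA integrity number and stayed within 1.5-fold under the other alternatives. The cause was not tested. Over all tested genes, calls of higher level on day -6, -2 and +1 numbered 0, 263 and 1799 in edgeR, 86, 617 and 2261 in DESeq2, 56, 684 and 2206 with the block, and 0, 0 and 35 with the RNA integrity number. The log2 ratio from day -14 to day -2 of the 32 named genes kept its direction in all 316 values over the alternatives and moved by less than 1 SD in 303. In 4 cases no value could be given because day -14 was then at 0. The RNA integrity fit, the exclusion of sow 3 and the alternatives for single genes were chosen after seeing the data.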

Other observations

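The 56 named members outside the 8 role groups were mixed in kind. LRAT, which esterifies retinol for storage, had means of 4.54 CPM on day -14, 14.3 on day -10, 19.8 on day -6, 44.2 on day -2 and 50.7 on day +1, and its largest step was the first. HAL, which starts the breakdown of histidine, had means of 0.274, 0.52, 3.03, 3.28 and 13.2 CPM. CTSV, a lysosomal cysteine protease, had means of 188.6, 202.6, 296.2, 391.4 and 747.9 CPM. KRT39, annotated as a type I keratin, had means of 0.414, 1.62, 2.35, 11.2 and 23.1 CPM and was higher at each step in all 3 sows. TC2N had a mean of 68.6 CPM on day -14 and 153.6 on day -2, and HEG1, a receptor of the endothelium, 5.69 and 13.01. HEG1 differed between sows already on day -14, at 1.88, 3.98 and 11.2 CPM, and its libraries of day +1 lay between 11.3 and 14.4 CPM.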
